A study of Mus musculus with 29 samples.

Results

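The matrix metalloproteases (MMPs), the ADAM and ADAMTS proteases and their tissue inhibitors (TIMPs) were taken from the expression tables by gene symbol: names of the form Mmp, Adam, Adamts or Adamtsl followed by a number, and Timp1 to Timp4. The rule found 84 of the 22855 genes listed in the B cell or the fibroblast files. Of these, 83 were listed in the B cell files (21819 genes) and 84 in the fibroblast files (21675 genes), since Adam20 was listed only in the fibroblast files. The study sequenced ribosome-depleted total RNA of mouse B cells and fibroblasts with and without added activity of Myc, a growth-promoting transcription factor. Values are FPKM (fragments per kilobase, scaled to sequencing depth). The B cell set held 4 libraries of splenic B cells from WT C57BL/6 mice and 4 of splenic B cells from Tg mice of the Eu-myc line, both from animals 6 to 8 weeks old and enriched with B220 magnetic beads. It also held 3 libraries of tumour cells from lymph nodes of Tg mice, named here Tg lymph node, which were pressed through cell strainers with no purification step. No age is given for these tumour-bearing mice. In the Eu-myc line the immunoglobulin heavy chain enhancer drives Myc in B lymphoid cells. The fibroblast set held 3T9 fibroblasts from E13.5 embryos of mixed strain. They were c-myc flox/flox and infected in vitro with MycER, a Myc fused to a hormone-binding domain that responds to 4-hydroxytamoxifen (OHT). All fibroblasts, controls included, shared this genotype and MycER, and the labels do not say whether the flox alleles were recombined. They received EtOH (0 h) or 400 nM OHT for 4, 8 or 16 h, with 4 libraries at each time. A further pair of libraries, 1 at 0 h and 1 at 4 h, held RNA made during a 10 min pulse of 4-thiouridine (4sU, 300 µM), which enters new transcripts. Values of replicates are given in the order of their numbers, which are 1, 3, 4 and 6 for WT spleen, 2, 3, 4 and 5 for Tg spleen and 1 to 3 for Tg lymph node. The labels do not say which libraries came from separate mice or cultures, so p-values measure only the spread between these libraries.

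MMPs are zinc-dependent enzymes that are secreted or held at the cell surface and cut collagens and other matrix proteins. They are made as inactive proenzymes, and are activated by proprotein convertases such as furin, by plasmin or by one another. ADAMs are membrane-anchored relatives with a disintegrin domain, and several of them release the outer part of other membrane proteins. ADAM10 cuts Notch and the low-affinity IgE receptor CD23 in B cells, and ADAM17 releases TNF and L-selectin. ADAMTS enzymes are secreted and carry thrombospondin repeats. They cut proteoglycans, procollagens or von Willebrand factor, and the ADAMTS-like proteins share the repeats but lack the protease. The TIMPs block MMPs, and TIMP3 also blocks several ADAM and ADAMTS enzymes.

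Many MMP genes lie side by side on chromosome 9, and the sequences just upstream of 5 of them are shown because these stretches share a short motif and because Mmp3 was among the members that differed between spleen and tumour nodes. Sequences are from RefSeq, build GRCm38.p6, which is not the mm9 build of the expression files. Each run is 120 bases long and ends 1 base before a start of the gene, written 5′ to 3′ on the gene's strand. Capitals mark the AP-1 motif TGANTCA, the letters that Fos and Jun dimers bind (N is any base; the motif reads the same on both strands).
Mmp13, chr9:7272394-7272513, plus strand: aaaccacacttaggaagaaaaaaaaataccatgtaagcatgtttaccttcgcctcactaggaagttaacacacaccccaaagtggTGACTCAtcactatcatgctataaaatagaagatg
Mmp12, chr9:7347254-7347373, plus strand: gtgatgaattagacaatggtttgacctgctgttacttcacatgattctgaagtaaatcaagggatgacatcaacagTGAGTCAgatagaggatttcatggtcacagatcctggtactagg
Mmp3, chr9:7445702-7445821, plus strand: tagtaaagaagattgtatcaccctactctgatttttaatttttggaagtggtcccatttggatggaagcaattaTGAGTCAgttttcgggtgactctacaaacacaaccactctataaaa
Mmp10, chr9:7502222-7502341, plus strand: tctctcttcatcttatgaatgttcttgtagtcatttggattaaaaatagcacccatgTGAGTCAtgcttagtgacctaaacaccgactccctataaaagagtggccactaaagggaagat
Mmp7, chr9:7691970-7692089, plus strand: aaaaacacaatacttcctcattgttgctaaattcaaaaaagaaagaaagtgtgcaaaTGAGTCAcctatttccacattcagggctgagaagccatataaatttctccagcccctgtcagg
In these runs the motif begins 35 bases before the start of Mmp13, 44 before Mmp12, 46 before Mmp3, 63 before Mmp10 and 63 before Mmp7. Mmp12 and Mmp7 each have another start in the table, whose window holds no AP-1 motif.

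For the ADAMs, the runs around the E-box CACGTG (the letters that Myc and Max bind, also the same on both strands) are shown for Adam10 and Adam19, which were among the 3 most abundant members in the B cells. Capitals mark the E-box.
Adam10, chr9:70678861-70678980, plus strand: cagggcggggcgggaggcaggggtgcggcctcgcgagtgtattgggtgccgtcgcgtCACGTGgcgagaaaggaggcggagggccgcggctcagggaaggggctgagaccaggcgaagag
Adam19, chr11:46054315-46054434, plus strand: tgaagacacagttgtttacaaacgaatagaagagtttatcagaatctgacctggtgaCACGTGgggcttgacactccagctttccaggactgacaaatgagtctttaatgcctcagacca
The E-box begins 64 bases before the Adam10 start and 130 before 1 of the Adam19 starts. Promoter windows of 250 bases before to 50 bases after the start were found for 54 of the 84 members (59 windows). AP-1 was present in 13 of the 59 windows (22.0%), against 7.81% of all 32851 windows in the table, and the E-box in 5 (8.47%), against 7.15%. Of the 10 chromosome 9 MMP genes with a window, 8 held an AP-1 motif, and no motif was found for Mmp8 and Mmp27. A match describes these letters only.

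Libraries of the B cell set had a median of 11 to 17.3 FPKM over all genes. Their highest gene reached 230335 to 986814 FPKM, while the highest gene of the total RNA fibroblast files lay at 139 to 200.6 FPKM, so levels were not compared between the sets. The spacing of low values corresponds to 0.817 to 1.46 reads per FPKM and kilobase in the B cell set. A member at 5 FPKM in the B cell set therefore rests on few reads. In the total RNA fibroblasts the same search gave 16.8 to 17.3, but only 44.0 to 59.2% of the low values then fell on whole reads. Most of these libraries gave the same 17.1, so no depth was read from it. Myc was 190.7 to 273.3 FPKM in WT spleen, 1017 to 2408 in Tg spleen and 1759 to 2179 in Tg lymph node, with no overlap between WT and either Tg group. B cell markers (10 genes) summed to 43012 to 48548 FPKM in WT spleen and 25066 to 38034 in Tg spleen. The library labelled Tg lymph node replicate 3 stood apart from its B cell label: the markers summed to 1451 there against 18607 and 20662 in replicates 1 and 2, while T cell markers summed to 17689 against 469 and 1292 and plasmacytoid dendritic cell markers to 14157 against 972 and 1712. Counts of called members in the nodes are therefore given with and without it, as are named members whose call or sign changed. Other lymph node values include it. Pancreas and salivary gland markers were also present in all 3 node libraries, at 2009 to 11438 and 1233 to 6979 FPKM, against at most 214 and 7.3 in the spleens.

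B cells and tumours used mainly ADAMs. Of the 83 members listed, 62 reached 1 FPKM in at least 1 of the 11 libraries and 21 never did. The first group comprised 19 of 23 MMPs, 21 of 32 ADAMs, 16 of 19 ADAMTS, 3 of 5 ADAMTS-like genes and 3 of 4 TIMPs. By role it held all 9 widely expressed ADAM proteases, all 7 proteoglycan-cutting and all 3 procollagen ADAMTS, all 5 stromelysins and matrilysins, 5 of 6 membrane-bound MMPs, 2 of 4 collagenases and 8 of 18 ADAMs of testis and epididymis. ADAMs made up 66.5 to 79.8% of the summed FPKM of the members, and Adam10, Adam17 and Adam19 alone 51.3 to 67.0%. ADAMTS genes made up 10.7 to 22.0% and TIMPs 1.30 to 4.50%. MMPs took 2.44 to 3.52% in WT spleen, 2.39 to 4.15% in Tg spleen and 4.43 to 18.8% in Tg lymph node, where their summed level was 156.2 to 386.3 FPKM, above the 56.3 to 77.5 of WT and the 50.8 to 66.4 of Tg spleen.

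Adam17 was the most abundant member by mean FPKM in all 3 B cell groups. Its FPKM was 575.8, 553.3, 497.5 and 529.2 in WT spleen, 552.4, 498.6, 384.8 and 457.7 in Tg spleen and 371.8, 464.8 and 751.7 in Tg lymph node. The groups overlapped, and the highest value belonged to lymph node replicate 3. Adam10, with 520.9, 441.2, 440.8 and 385.8 FPKM in WT spleen, 402.2, 426.4, 483.4 and 217.1 in Tg spleen and 450.9, 458.3 and 436.3 in the nodes, also overlapped throughout. Adam19, a sheddase of neuregulin and other growth factors, stood at 321, 289.7, 352.3 and 258.6 FPKM in WT spleen, 374.1, 346, 337.2 and 285.3 in Tg spleen and 233.1, 336.9 and 779.2 in the nodes. Node replicate 3 lay far above all other libraries and node replicate 1 slightly below them. None of these genes was called in a comparison of B cell groups. Next in order in WT spleen were Adamts10 (mean 219 ± 41.3 FPKM, SD, n = 4), Adamts6 (193 ± 24.8) and Adam9 (141 ± 11.7), the first pair being ADAMTS enzymes linked to fibrillin microfibrils.

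**Figure D1:**
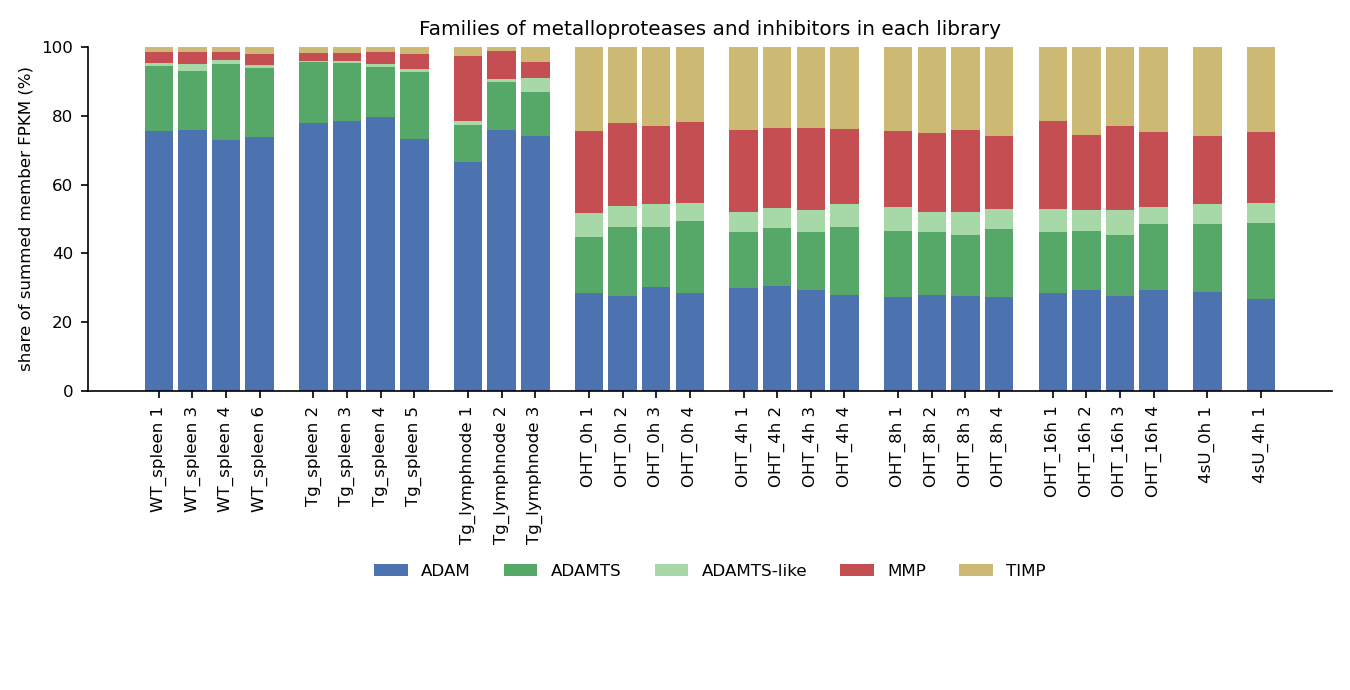
Percent of the summed member FPKM taken by each family (stacked bars, 1 bar per library) in the B cell and fibroblast libraries. ADAMs take 66.5 to 79.8% in the B cell set and 27.2 to 30.4% in the total RNA fibroblasts, and the MMP part is larger in the 3 lymph node libraries than in the 8 spleen libraries. The FPKM scales of the sets differ, so shares are not compared between them.

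Splenic B cells of Tg mice had less RNA of 4 ADAMs and 1 ADAMTS-like gene than those of WT mice, and no member was higher. Of 39 members tested, 5 were lower (12.8%), where 12.2% of all 14021 genes tested were lower, so the share of lower members was near that of all genes. With limma 0 members were higher, also at an unadjusted p under 0.05 and with limma run without trend and robust settings, while 15.7% of all genes were higher. At an unadjusted p under 0.05, 11 members were lower. The members' median log2 difference was -0.30, against -0.05 over all genes tested. In bulk RNA, fewer cells of a type and less RNA per cell cannot be told apart.

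Adam28, an ADAM of lymphocytes, had 7.4, 6.1, 13.2 and 6 FPKM in WT and 3.2, 2, 0 and 0 in Tg spleen. All Tg values lay below all WT values (log2 difference -2.74 ± 0.68 SE on the log2(FPKM + 0.5) scale, limma adjusted p = 0.0172). Adam6b lies in the immunoglobulin heavy chain locus beside its near-identical copy Adam6a, which never reached 1 FPKM. It had 41, 23.7, 31 and 24.6 FPKM in WT and 14.5, 16, 5 and 4.8 in Tg spleen. The groups did not overlap (-1.70 ± 0.42, limma adjusted p = 0.0164), and how reads shared by the copies were assigned is not given in the sources used here. In the nodes Adam6b had 2.7, 43.5 and 42.8 FPKM, a range that spans both spleen groups.

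The other ADAMs that were lower, Adam11 and Adam23, belong to the members without protease function, which act in cell adhesion. Adam11 had 3.3, 4.7, 22.9 and 9.4 FPKM in WT and 2.5, 0.6, 1.5 and 1.7 in Tg spleen. Every Tg value was lower than every WT value, and WT replicate 4 was the highest (-2.08 ± 0.57, limma adjusted p = 0.0251). Adam23 had 12, 19.9, 15.7 and 22.6 FPKM in WT and 10.9, 7.3, 2.5 and 9.7 in Tg spleen, again without overlap (-1.28 ± 0.42, limma adjusted p = 0.047). Adamtsl4, a fibrillin-binding protein, had 18.2, 42.8, 24.1 and 12.6 FPKM in WT and 7.4, 11.3, 13 and 8.8 in Tg spleen. Here the highest Tg library lay above the lowest WT library (-1.12 ± 0.36, limma adjusted p = 0.0444). Neither Adam10 nor Adam17 differed by the test (-0.28 ± 0.23 and -0.20 ± 0.14, limma adjusted p = 0.388 and 0.305), and Timp2 stayed within 23.3 to 36.7 FPKM over all 8 spleen libraries.

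These calls rested on few libraries. Leaving out 1 library at a time left 1 to 5 members lower: 1 without WT spleen replicate 4, 2 without WT replicate 1, 3 without WT replicate 3 or 6, 2 without Tg replicate 3 or 5 and 3 without Tg replicate 4. With only the 4 libraries of high Rpph1 (the RNA of RNase P, at 545353 to 735331 FPKM there) no member was lower, and with only the 4 of low Rpph1 (153474 to 215865 FPKM) 4 were. The high set held WT replicates 1 and 3 and Tg replicates 2 and 3. The low set held WT replicates 4 and 6 and Tg replicates 4 and 5. No share of all genes was computed in these small sets, so lost calls and lost power cannot be told apart. Markers of some cell types were lower in Tg spleen, where 12.2% of all genes were. They were 6 of 8 NK cell markers (sums 437 to 808 FPKM in WT, 53.2 to 394 in Tg), 3 of 6 dendritic cell markers (136.5 to 317.8, then 53.7 to 165.2) and 4 of 6 plasmacytoid dendritic cell markers (1743 to 2047, then 1190 to 1974). Of B cell markers 5 of 10 were lower, of T cell markers 2 of 10 and of pancreas markers 3 of 9. The 1 salivary gland marker tested was lower too. By limma, 0 of 10 neutrophil, 0 of 11 macrophage and monocyte, 0 of 8 erythroid and platelet and 0 of 6 stromal markers were called. Of 6 endothelial markers, 1 was higher and 1 lower. The part of these cell types in the member results was not tested.

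**Figure D2:**
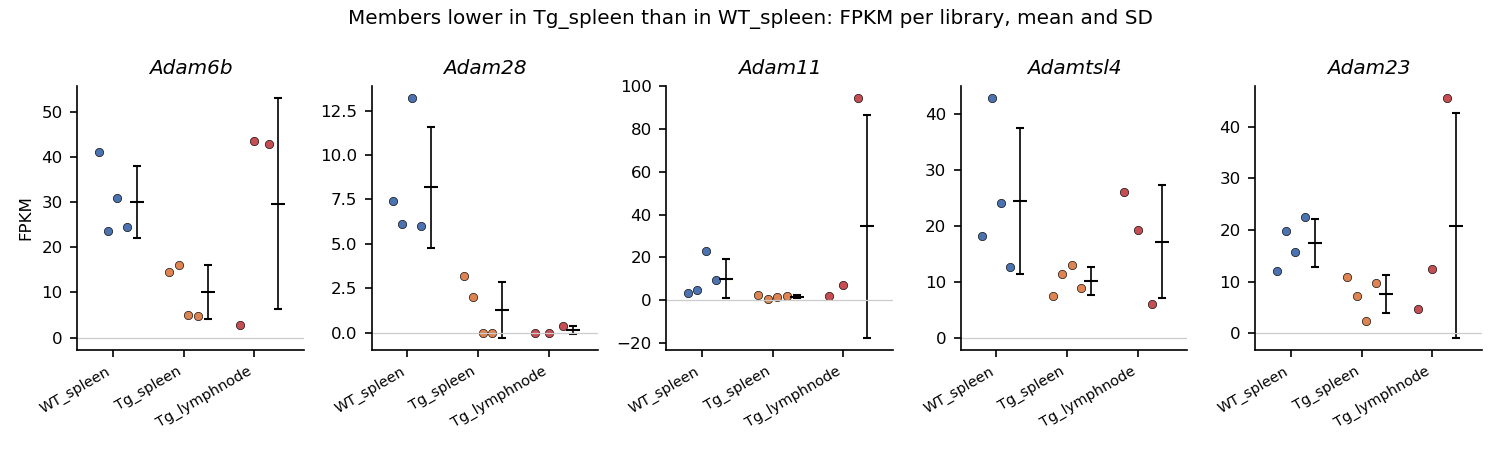
FPKM of the 5 members that were lower in Tg than in WT splenic B cells, 1 point per library for WT spleen, Tg spleen and Tg lymph node, with mean and SD beside the points. Adam6b, Adam28, Adam11 and Adam23 show no overlap between the 4 WT and the 4 Tg libraries, and Adamtsl4 does.

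Around the members in spleen, RNA of proteins that ADAM10 and ADAM17 release was lower more often than it was higher. Of all genes tested 12.2% were lower and 15.7% higher, and of 23 membrane substrates tested 7 were lower and 0 higher by limma. The leading ones were Fcer2a (CD23; mean 561 FPKM in Tg and 2248 in WT, -2.13 ± 0.33, limma adjusted p = 0.0036), Icosl (-2.03 ± 0.36, limma adjusted p = 0.00526) and Lag3 (-1.01 ± 0.25, limma adjusted p = 0.017). Fcer2a is also 1 of the 10 B cell markers. Among proprotein convertases, Furin (-0.60 ± 0.16, limma adjusted p = 0.0232) and Pcsk7 (-0.41 ± 0.12, limma adjusted p = 0.0304) were lower and Pcsk4 was higher (2.02 ± 0.27, limma adjusted p = 0.00235), of 3 tested. Rhbdf2, which escorts ADAM17 to the cell surface, was the only 1 of 8 tested partners of ADAM10 and ADAM17 to be called (-0.72 ± 0.16, limma adjusted p = 0.0109). Of 10 other metalloproteases tested, 3 were higher (Thop1, Ece2 and Ide, all peptide-cutting enzymes) and Astl was lower. By limma, 0 of 6 genes of the plasminogen system and 0 of 7 other inhibitors and inducers were called. Nid1, a basement membrane protein, was the 1 of 14 matrix substrates to be called, and was higher (48.1 FPKM in WT and 130 in Tg, 1.41 ± 0.24, limma adjusted p = 0.00433).

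The lymph node tumours had RNA of several matrix-cutting members, Mmp2, Mmp3, Adamts1 and Adamts2 among them, that was at most 1.5 FPKM in every spleen library, and more of Mmp14, Mmp23 and Timp3. Of 55 members tested, 19 were higher (34.5%) and 3 lower (5.45%), where 20.3% of all 14758 genes tested were higher and 17.7% lower. Higher members comprised 8 of 14 ADAMTS, 5 of 17 MMPs, 4 of 19 ADAMs and 2 of 3 TIMPs. Of the 19, 12 reached 1 FPKM in fewer than 3 WT libraries and so entered the test through the nodes, where they were high. These 12 include all 8 ADAMTS genes, so the share of higher members among the 55 supports nothing about the family. Of the 38 members at 1 FPKM in at least 3 WT libraries, 7 were higher (18.4%) and 3 lower (7.89%), where 18.4% and 19.2% of all 13657 such genes were: the share of higher members equalled that of all genes. Against Tg spleen, 14 of 53 members were higher (26.4%), where 3.56% of all 14692 genes were, and 0 were lower by limma (1 at an unadjusted p under 0.05, and 0 with limma without trend and robust settings), where 2.39% of all genes were. Here 10 of the 14 entered the test through the nodes in the same way. Of the 34 members at 1 FPKM in at least 3 Tg spleen libraries, 4 were higher (Adam8, Mmp14, Mmp23 and Timp3; 11.8%) and 0 lower, where 1.81% and 2.59% of all 13577 such genes were. This split was chosen after the values were seen, and it was not repeated without node replicate 3. Without that library Adam8 and Timp3 lost their calls against Tg spleen. The Mmp14 and Mmp23 calls against Tg spleen were lost without some other single libraries. With the filter at 5 FPKM, 11 members were higher than in WT spleen and 5 higher than in Tg spleen. Both comparisons share the 3 node libraries. Of all genes called against Tg spleen, 59.8% were higher, 60.9% with median ratio scaling and 49.7% with quantile normalization, and 12 and 8 members were then higher. Without node replicate 3, 20 members were higher and 4 lower than in WT spleen, and 10 were higher than in Tg spleen.

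Among the MMPs, Mmp14 had the highest level. This membrane-bound enzyme cuts collagen and activates Mmp2. It had 3.7, 4.1, 4.8 and 3.4 FPKM in WT spleen, 2.5, 4.4, 14.6 and 8.4 in Tg spleen and 245.6, 68.9 and 49.1 in the nodes. All nodes lay above all spleen libraries, by 4.40 ± 0.53 on the log2 scale against WT (limma adjusted p = 0.000673) and by 3.83 ± 0.70 against Tg spleen (limma adjusted p = 0.0201). The call against Tg spleen was lost without Tg spleen replicate 3 or 5 or node replicate 2. Mmp2, gelatinase A, had 0.8, 0.4, 1.5 and 1.2 FPKM in WT spleen, 0.3, 0, 0.3 and 1.1 in Tg spleen and 14.3, 8.4 and 11.9 in the nodes. The groups were apart here too (3.06 ± 0.43 against WT, limma adjusted p = 0.00127, and 3.80 ± 0.51 against Tg spleen, limma adjusted p = 0.00526).

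Mmp3, stromelysin-1, which cuts many matrix proteins and activates other MMPs, was listed at 0 in all 8 spleen libraries and had 8, 24.1 and 8.5 FPKM in the nodes. Its promoter run is among those shown above. About 12 to 39 reads per library lie behind the node values, and the nodes did not overlap the spleens (limma adjusted p = 0.000361 against WT and 0.0021 against Tg spleen). Its neighbours reached lower levels: Mmp12 had 7, 6.2 and 1.3 FPKM in the nodes and at most 3.4 in a spleen library, Mmp10 at most 1.9 and Mmp7 at most 4 in any library, and Mmp13 reached 11.6 in WT spleen and at most 0.8 in the nodes. None of these neighbours was called. Mmp8, also in the chromosome 9 cluster but without an AP-1 motif in its window, was higher than in WT spleen (2.11 ± 0.47, limma adjusted p = 0.00964). Against Tg spleen Mmp8 was not called (1.20 ± 0.47, limma adjusted p = 0.170). Mmp23, a membrane-bound MMP, had 1.7, 3.3, 2.5 and 6.2 FPKM in WT spleen, 2.6, 6.5, 4.2 and 6.6 in Tg spleen and 25.2, 20.9 and 23.7 in the nodes. The 3 nodes were close to each other and above every spleen library (2.72 ± 0.43 against WT, limma adjusted p = 0.00231, and 2.19 ± 0.41 against Tg spleen, limma adjusted p = 0.022), and the latter call was lost without Tg spleen replicate 3 or node replicate 1 or 2.

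The ADAMTS genes that rose are mostly enzymes of proteoglycans and procollagen. Adamts1, which cuts versican and aggrecan, was listed at 0 in all WT spleens and had 0.6, 0, 0.5 and 0.6 FPKM in Tg spleen and 4.2, 5.5 and 6.5 in the nodes. Every node was above every spleen library (limma adjusted p = 0.000414 against WT, and 2.72 ± 0.47, limma adjusted p = 0.0155, against Tg spleen), on about 18 to 29 reads per node library. Adamts2, which removes the amino-terminal propeptide of procollagen, was likewise listed at 0 in WT and had 0.2, 0, 0.4 and 0.5 FPKM in Tg spleen and 3.2, 5.4 and 6.6 in the nodes. The groups did not overlap (limma adjusted p = 0.000664 against WT, and 2.84 ± 0.47, limma adjusted p = 0.0132, against Tg spleen).

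Adamts9, another versican-cutting enzyme, had 0, 0.2, 0.2 and 0.3 FPKM in WT spleen, 0, 0, 0 and 0.8 in Tg spleen and 3.8, 6.3 and 8 in the nodes. Nodes were above both spleen groups (3.24 ± 0.43, limma adjusted p = 0.000985, and 3.31 ± 0.53, limma adjusted p = 0.0116). Adamts5, the main aggrecan-cutting enzyme of cartilage, had 0.5, 0.2, 0.2 and 0.4 FPKM in WT spleen, 0.6, 0.1, 0.6 and 1.3 in Tg spleen and 3.6, 4.8 and 9.8 in the nodes. It separated the groups (2.90 ± 0.45, limma adjusted p = 0.00219, and 2.51 ± 0.54, limma adjusted p = 0.0348), but the call against Tg spleen was lost when any 1 of the 7 libraries was left out (2.12, limma adjusted p = 0.0683, without node replicate 3). The remaining higher ADAMTS genes against WT, Adamts4, Adamts12, Adamts15 and Adamts20, reached 1 to 4.3 FPKM in the nodes and at most 0.5 in a spleen library, and all but Adamts15 were also higher than in Tg spleen.

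Among ADAMs, Adam12, a growth-factor sheddase of mesenchymal cells, had 0.2, 0.2, 0.8 and 0.1 FPKM in WT spleen, 0, 0, 0.2 and 0.4 in Tg spleen and 5.8, 6.2 and 8.7 in the nodes. The nodes were apart from both spleen groups (3.21 ± 0.43, limma adjusted p = 0.0011, and 3.53 ± 0.44, limma adjusted p = 0.00407). Adam8, an ADAM of leukocytes, had 18.7, 27.2, 25 and 23.4 FPKM in WT spleen, 15.1, 15.7, 10.8 and 18.1 in Tg spleen and 29, 51.3 and 103.8 in the nodes. Node replicate 3 was the highest. Adam8 was called only against Tg spleen (1.84 ± 0.44, limma adjusted p = 0.0496; against WT 1.18 ± 0.41, limma adjusted p = 0.0519), and lost that call under 13 of 16 alternatives, among them both scalings and leaving out node replicate 2 or 3 or any Tg spleen library (1.36, limma adjusted p = 0.0722, without node replicate 3). The other higher ADAMs against WT were Adam15 (17.1 to 31.1 FPKM in the nodes, 9.3 to 12 in WT spleen), Adam1b and Adam3, and Mmp8 was the remaining higher MMP (5.4 to 9.1 against 0.4 to 2).

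Adamts6, Adam28 and Adam22 were lower in the nodes than in WT spleen. Adamts6, the fifth member by level in WT spleen, had 217.5, 173.9, 210.8 and 169.3 FPKM in WT spleen, 184.3, 150.2, 100.2 and 102.4 in Tg spleen and 63.8, 61.3 and 77.2 in the nodes. The nodes lay below every spleen library (-1.51 ± 0.16, limma adjusted p = 0.000427), while the difference from Tg spleen missed the threshold (-0.95 ± 0.26, limma adjusted p = 0.0728). Adam28, lower already in Tg spleen, had 0, 0 and 0.4 FPKM in the nodes (-3.76 ± 0.45 against WT, limma adjusted p = 0.000664). Adam22, a binding protein of the LGI family named here after its values were seen, had 28.6, 27.9, 23.1 and 22.6 FPKM in WT spleen and 9.3, 12.4 and 12.8 in the nodes, without overlap (-1.12 ± 0.27, limma adjusted p = 0.0124).

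Of the inhibitors, Timp3, which binds to the matrix, had 2.3, 1.3, 0.6 and 2.1 FPKM in WT spleen, 0.6, 1.3, 1.5 and 3.3 in Tg spleen and 8.5, 6.4 and 12.5 in the nodes. All nodes were above all spleens (2.26 ± 0.47, limma adjusted p = 0.00719, and 2.24 ± 0.52, limma adjusted p = 0.0433), the call against Tg spleen being lost without any 1 node library (2.00, limma adjusted p = 0.0811, without replicate 3) or without Tg spleen replicate 2, 3 or 4. Exons of Timp3 overlap Syn3 on the opposite strand, and the strand setting of the counting is not stated. Timp1, a soluble inhibitor, had 0, 0, 2 and 0 FPKM in WT spleen, 0, 1.2, 0.9 and 2.3 in Tg spleen and 4.1, 5 and 6.6 in the nodes. It was called against WT (2.92 ± 0.66, limma adjusted p = 0.0102) and not against Tg spleen (2.06 ± 0.61, limma adjusted p = 0.0907), and only about 3 to 5 reads per library lie behind the node values. Timp2, the leading TIMP, had 32, 31.7, 31 and 36.7 FPKM in WT spleen, 34.6, 29.8, 23.3 and 29.2 in Tg spleen and 41.3, 19.9 and 139.6 in the nodes. The node values straddled the spleens, with replicate 3 far above, and Timp2 was not called (0.57 against WT, and -0.19 without replicate 3). Timp4 never reached 1 FPKM.

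**Figure D3:**
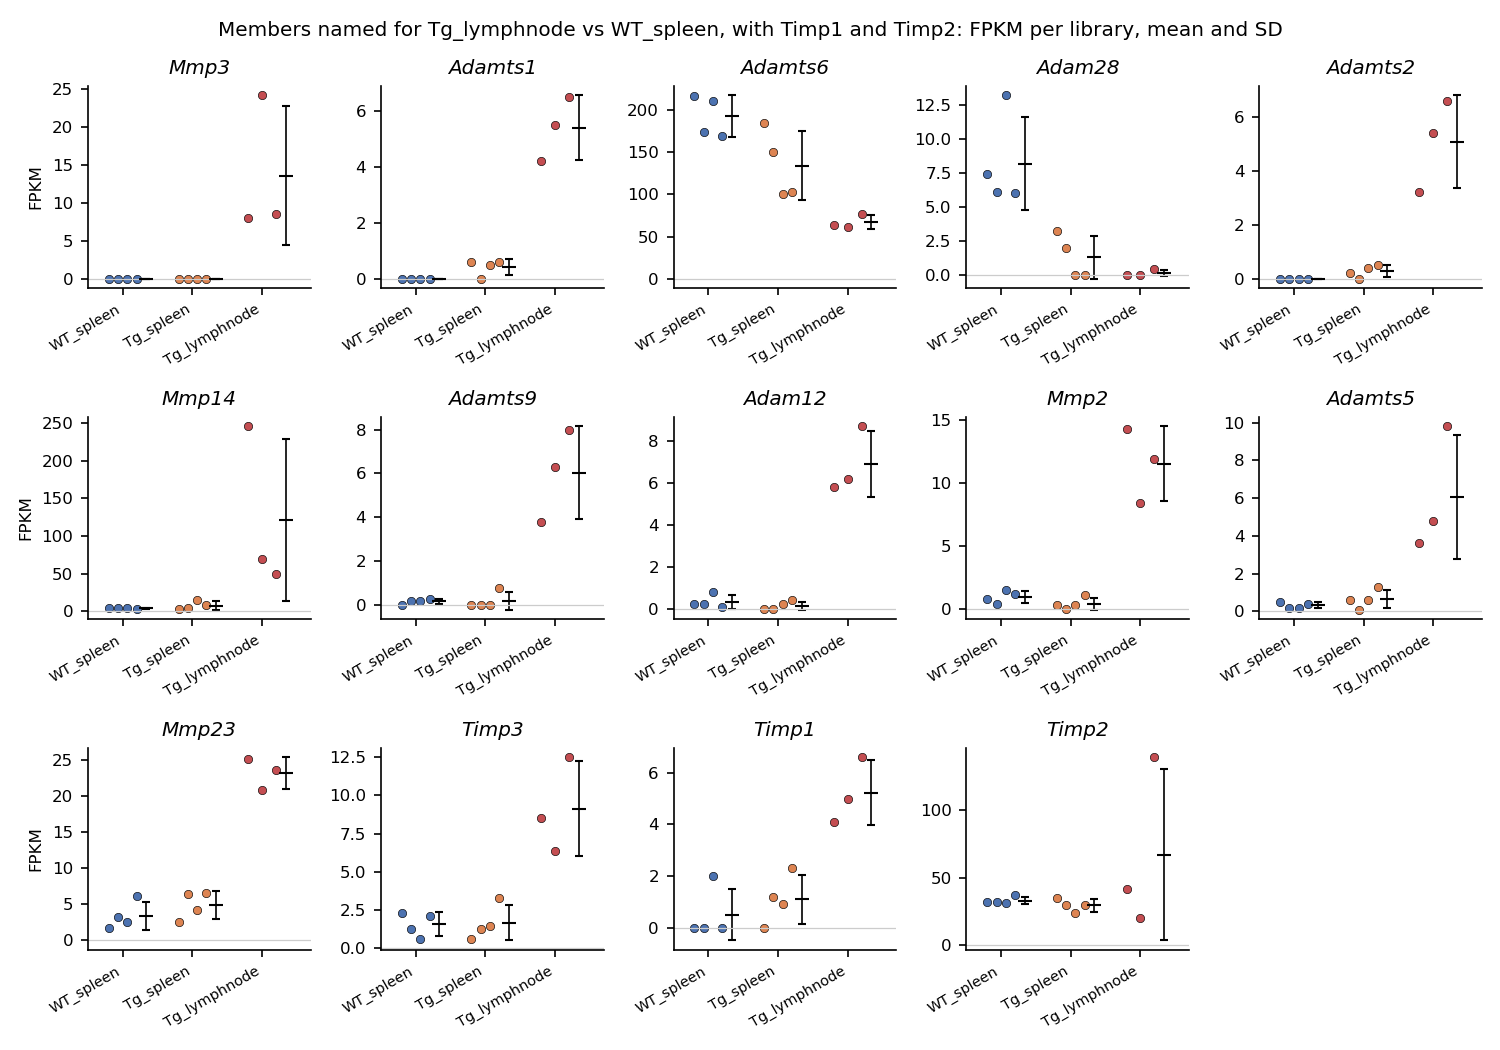
FPKM (linear axes, a scale for each gene) of the 12 members with the smallest adjusted p between Tg lymph node and WT spleen, and of Timp1 and Timp2, 1 point per library with mean and SD beside the points. Mmp14, Mmp2, Mmp3 and Adamts1 sit higher in all 3 node libraries than in any of the 8 spleen libraries, and Adamts6 sits lower.

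Genes of stroma and matrix moved with these members. In the nodes, 9 of 10 stromal markers were higher than in WT spleen and 10 of 10 higher than in Tg spleen. The list summed to 476.5 to 818.7 FPKM in the nodes, where all 10 were at 1 FPKM or more, and to 20.7 to 40.7 in the spleens, where 5 to 7 were. Of 21 matrix substrates tested, 16 were higher than in WT spleen and 1 lower, among them Dcn (decorin, 7.24 ± 0.42), Col1a2 (5.28 ± 0.31) and Col1a1 (6.23 ± 0.42; limma adjusted p = 8.04e-05, 8.04e-05 and 9.29e-05), and 17 were higher than in Tg spleen. The collagens and Dcn stand in both lists. All 12 pancreas markers and all 6 salivary gland markers tested were higher too. Over all genes tested, 20.3% were higher than in WT spleen and 3.56% higher than in Tg spleen. At most 2 of 9 salivary gland markers reached 1 FPKM in a spleen library, so most of those tested passed the filter through the nodes. Of the 10 stromal markers at most 7 did, and of the 12 pancreas markers at most 7 in Tg spleen. These counts were therefore partly set by the filter. The part of stromal, pancreas and salivary gland cells in the member results was not tested. Purification and organ differ between the groups by design, since the spleens were bead-enriched and the nodes were not. No age is given for the mice with tumours, so tumour, organ, age and purification cannot be told apart.

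Some other genes of the pathway also differed in the nodes. Against WT spleen, Plau and Plat, the activators that turn plasminogen into plasmin, were higher (2.15 ± 0.57 and 2.32 ± 0.52, limma adjusted p = 0.0191 and 0.0101) and Serpine2, a serine protease inhibitor, was lower (-2.03 ± 0.50, limma adjusted p = 0.0146), of 7 tested. Of 9 other inhibitors and inducers, 6 were higher and 1 lower. Sparc, a collagen-binding protein, averaged 153 FPKM in the nodes and 4.83 in WT spleen (5.09 ± 0.55, limma adjusted p = 0.00041), Thbs2 rose by 4.02 ± 0.43 (limma adjusted p = 0.000413), and Pcolce2, a procollagen processing enhancer, was lower (-5.14 ± 0.47, limma adjusted p = 0.000223). Of 8 ADAM10 and ADAM17 partners, Tspan15, which steers ADAM10 to its substrates, was lower (27.4 FPKM in WT, 1.20 in the nodes, -4.07 ± 0.42, limma adjusted p = 0.000361), as was Rhbdf1, and Tspan10 was higher. Of 26 membrane substrates, 6 were higher and 6 lower, near the shares of all genes (20.3% and 17.7%), and the smallest adjusted p belonged to Icosl, Fcer2a and Vcam1, all lower (-2.96 ± 0.16, -4.87 ± 0.34 and -2.45 ± 0.28, limma adjusted p = 8.04e-05, 9.55e-05 and 0.00051). Of 11 other metalloproteases 5 were higher and 2 lower, led by Thop1 (2.51 ± 0.23, limma adjusted p = 0.000246) and including Adamdec1, an ADAM relative outside the symbol rule (110 FPKM in WT and 6.07 in the nodes, -4.79 ± 0.70, limma adjusted p = 0.00169).

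In the 3T9 fibroblasts no family made up most of the summed member FPKM, and inhibitors stood among the leading members. Shares were not compared with the B cell set, whose FPKM scale differs. Of the 84 members, 42 reached 1 FPKM in at least 1 of the 16 total RNA libraries: 14 of 23 MMPs, 12 of 33 ADAMs, 10 of 19 ADAMTS, 3 of 5 ADAMTS-like genes and 3 of 4 TIMPs. The other 42 never did. By role, 7 of 9 widely expressed ADAM proteases, 5 of 6 membrane-bound MMPs, 4 of 7 proteoglycan-cutting ADAMTS and 4 of 19 ADAMs of testis and epididymis reached it. ADAMs made up 27.2 to 30.4% of the summed member FPKM, MMPs 21.4 to 25.6%, TIMPs 21.6 to 25.8%, ADAMTS 16.3 to 20.9% and ADAMTS-like genes 4.92 to 7.40%. Stromal markers summed to 164 to 257 FPKM with 6 to 9 of 10 genes at 1 FPKM, while B cell markers summed to at most 10.6. At 0 h, the mean levels were highest for Timp1 (79.7 ± 6.97 FPKM, SD, n = 4), Timp2 (73.4 ± 6.92), Adam9 (62.4 ± 8.09), Mmp2 (59.2 ± 5.76), Adamts1 (58.9 ± 10.4) and Mmp14 (56.9 ± 3.24). Neighbours in this order lay within 1 SD of each other, except Adam9 below Timp2.

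After OHT a small set of ADAMTS, ADAM and MMP genes was lower and Mmp17 was higher. At 4 h, of 40 members tested, 6 were lower (15%) and 1 higher, where 2.88% of all 12934 genes were lower and 1.9% higher (14 and 2 members at an unadjusted p under 0.05). At 8 h, 1 was lower and 0 higher by limma (10 and 2 unadjusted, and 0 higher with limma without trend and robust settings), where 0.982% of all genes were lower and 1.21% higher. At 16 h, 10 were lower (25%) and 1 higher, where 7.75% of all genes were lower and 1.76% higher (16 and 2 unadjusted). The members' median log2 differences were -0.21, -0.11 and -0.28, against -0.04, -0.06 and -0.14 over all genes. These 3 comparisons share the 0 h libraries. Between 16 h and 4 h, limma called 0 members in either direction (0 higher and 1 lower at an unadjusted p under 0.05), and 0% of all genes were called higher and 0% lower. Scaling by the median ratio moved the all-gene median at 16 h from -0.14 to 0.05, and the share of higher genes among all calls from 18.5% to 51.0% (48.7% with quantile normalization). At 4 h that share went from 39.8% to 50.9% and 48.7%, and at 8 h from 55.1% to 63.0% and 57.9%. At 16 h, 9 of the 10 lower members were also called with median ratio scaling (all but Adamts5) and 9 with quantile normalization (all but Mmp19), Mmp11 was called in addition under both, and 3 and 4 members were then higher. At 4 h all 6 lower members were also called under both scalings, and 10 were lower in all. Adamts9, not called on the deposited scale, was higher under both scalings at 4, 8 and 16 h.

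Adamts4, an aggrecan-cutting enzyme, was lower at every time. Its FPKM was 2.89, 3.556, 3.658 and 3.494 at 0 h, 1.42, 1.272, 1.865 and 1.022 at 4 h, 1.638, 1.019, 2.016 and 0.757 at 8 h and 1.81, 0.777, 1.15 and 0.662 at 16 h. All 12 OHT libraries lay below all 4 libraries at 0 h (-1.06 ± 0.23, -1.12 ± 0.23 and -1.33 ± 0.23, limma adjusted p = 0.0114, 0.0124 and 0.00117). Adamts7, which cuts cartilage oligomeric matrix protein, had 6.201, 7.349, 7.343 and 5.16 FPKM at 0 h, 2.138, 1.923, 2.968 and 3.567 at 4 h, 4.102, 4.019, 3.785 and 2.101 at 8 h and 4.006, 1.791, 2.909 and 1.125 at 16 h. The OHT values were again all below the 0 h values (-1.17 ± 0.27 and -1.34 ± 0.27 at 4 and 16 h, limma adjusted p = 0.0142 and 0.00339), with 8 h not called (-0.83 ± 0.27, limma adjusted p = 0.129). Exons of Adamts7 overlap Tbc1d2b on the opposite strand.

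Adamts2 had 6.838, 8.235, 7.005 and 6.45 FPKM at 0 h, 2.305, 2.126, 3.636 and 4.803 at 4 h, 5.791, 5.659, 5.205 and 3.489 at 8 h and 5.401, 3.061, 3.961 and 2.223 at 16 h. It was below 0 h in every OHT library, and called at 4 h and 16 h (-1.09 ± 0.25 and -0.93 ± 0.25, limma adjusted p = 0.0121 and 0.0204). Adamts6 was called at 16 h only, with 18.033, 20.604, 13.679 and 29.658 FPKM at 0 h and 12.854, 10.022, 12.473 and 11.245 at 16 h (-0.74 ± 0.19, limma adjusted p = 0.0157). So was Adamts5, with 23.31, 24.842, 25.158 and 28.586 FPKM at 0 h and 22.412, 12.628, 19.199 and 12.626 at 16 h (-0.63 ± 0.20, limma adjusted p = 0.0464). Both were without overlap at 16 h, but Adamts5 lost its call with median ratio scaling (-0.44, limma adjusted p = 0.0732). Adamts1, the leading ADAMTS gene, lay at 46.84 to 68.464 FPKM at 0 h and 50.736 to 72.836 over the 12 OHT libraries, and was not called at any time.

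Adam19, the ADAM with the E-box run above, had 14.972, 17.339, 14.326 and 10.301 FPKM at 0 h, 4.754, 5.246, 7.289 and 5.69 at 4 h, 11.296, 8.969, 12.582 and 3.763 at 8 h and 10.097, 5.372, 6.947 and 3.046 at 16 h. It was lower without overlap at 4 h and 16 h (-1.23 ± 0.32 and -1.19 ± 0.32, limma adjusted p = 0.0326 and 0.0247), and the 8 h values overlapped those of 0 h (-0.71 ± 0.32, limma adjusted p = 0.35). Adam8 had 3.403, 3.947, 3.143 and 4.117 FPKM at 0 h, 1.535, 2.641, 2.724 and 1.308 at 4 h, 2.478, 1.913, 2.389 and 1.583 at 8 h and 2.061, 1.799, 1.812 and 1.343 at 16 h. All OHT values were below those at 0 h, with calls at 4 h and 16 h (-0.74 ± 0.20 and -0.89 ± 0.20, limma adjusted p = 0.0386 and 0.00867). Adam10, which also has an E-box run, lay at 27.137 to 36.173 FPKM at 0 h and 25.222 to 37.953 in the OHT libraries and was not called, nor was Adam17 (38.406 to 46.032 and 30.375 to 44.205).

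Of the MMPs, Mmp17 was the 1 member to rise. This enzyme is held at the membrane by a lipid anchor. It had 1.512, 1.819, 1.634 and 1.926 FPKM at 0 h, 3.497, 4.052, 4.795 and 2.422 at 4 h, 2.171, 2.233, 2.962 and 3.064 at 8 h and 3.661, 2.195, 4.115 and 3.311 at 16 h. Every OHT library was above every 0 h library, with calls at 4 h and 16 h (0.89 ± 0.20 and 0.76 ± 0.20, limma adjusted p = 0.0142 and 0.0223). Mmp28, epilysin, fell from 2.905, 3.084, 3.124 and 3.184 FPKM at 0 h to 1.318, 0.842, 1.74 and 2.672 at 4 h and 1.146, 0.915, 1.303 and 0.74 at 16 h, without overlap (-0.81 ± 0.22 and -1.24 ± 0.22, limma adjusted p = 0.041 and 0.00146). Its 8 h values, 2.11, 2.003, 2.584 and 1.341, were not called.

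Mmp9, gelatinase B, had 4.951, 5.553, 5.056 and 4.9 FPKM at 0 h and 3.717, 1.498, 2.67 and 2.242 at 16 h. The 16 h values were all lower (-0.94 ± 0.24, limma adjusted p = 0.0157). Mmp19 had 5.665, 4.876, 4.346 and 6.347 FPKM at 0 h and 3.896, 2.546, 3.763 and 2.422 at 16 h, also without overlap (-0.68 ± 0.21, limma adjusted p = 0.0477), a call that was lost with quantile normalization (-0.46, limma adjusted p = 0.0523). Mmp2 stayed at 53.404 to 64.923 FPKM at 0 h and 46.137 to 74.275 with OHT, and Mmp14 at 52.816 to 60.558 and 26.918 to 61.86. Neither was called. Of the chromosome 9 cluster, Mmp3 had 2.642, 2.412, 2.333 and 5.05 FPKM at 0 h and 1.119 to 3.733 with OHT, and Mmp13 had 0.417, 0.128, 0.553 and 4.121 at 0 h. The high value of both belongs to 0 h replicate 4, where macrophage markers summed to 81.9 FPKM against 30.6 to 35.1 in the other 0 h libraries, and the part of that library was not tested. Mmp3 was not called.

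No TIMP was called after OHT. Timp1 had 86.607, 79.617, 70.168 and 82.379 FPKM at 0 h, 65.496, 67.684, 71.913 and 88.012 at 4 h, 66.809, 90.606, 72.832 and 86.645 at 8 h and 72.646, 60.858, 70.149 and 70.408 at 16 h. The groups overlapped, and no time was called (-0.13 ± 0.12 at 4 h and -0.22 ± 0.12 at 16 h, limma adjusted p = 0.693 and 0.269). Timp2 lay at 65.072 to 79.628 FPKM at 0 h and 52.23 to 93.398 with OHT, and Timp3 at 22.145 to 24.081 and 12.344 to 28.645. Neither was called, though all 4 Timp3 values at 16 h (21.217, 17.704, 20.743 and 12.344) lay below those at 0 h. Timp4 never reached 1 FPKM.

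Counts of calls in the fibroblasts depended on single libraries. At 4 h, 1 member was lower without 4 h replicate 1, 2 without 4 h replicate 2 or 0 h replicate 2 and 3 without 0 h replicate 1, and the Mmp17 call was lost without 0 h replicate 1 or 4 h replicate 2 or 3. At 8 h the Adamts4 call was lost without 8 h replicate 2. At 16 h, 4 were lower without 16 h replicate 2 and 6 without 0 h replicate 2, and the Mmp17 call was lost without 0 h replicate 1, 2 or 3 or 16 h replicate 3. Replicate 4 held the lowest value of its group for 30 of 40 members at 8 h (75%; 70.3% of all genes) and for 25 of 40 at 16 h (62.5%; 46.6% of all genes). Without the 4 libraries numbered 4, 10 members were lower at 4 h, 2 at 8 h and 8 at 16 h.

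**Figure D4:**
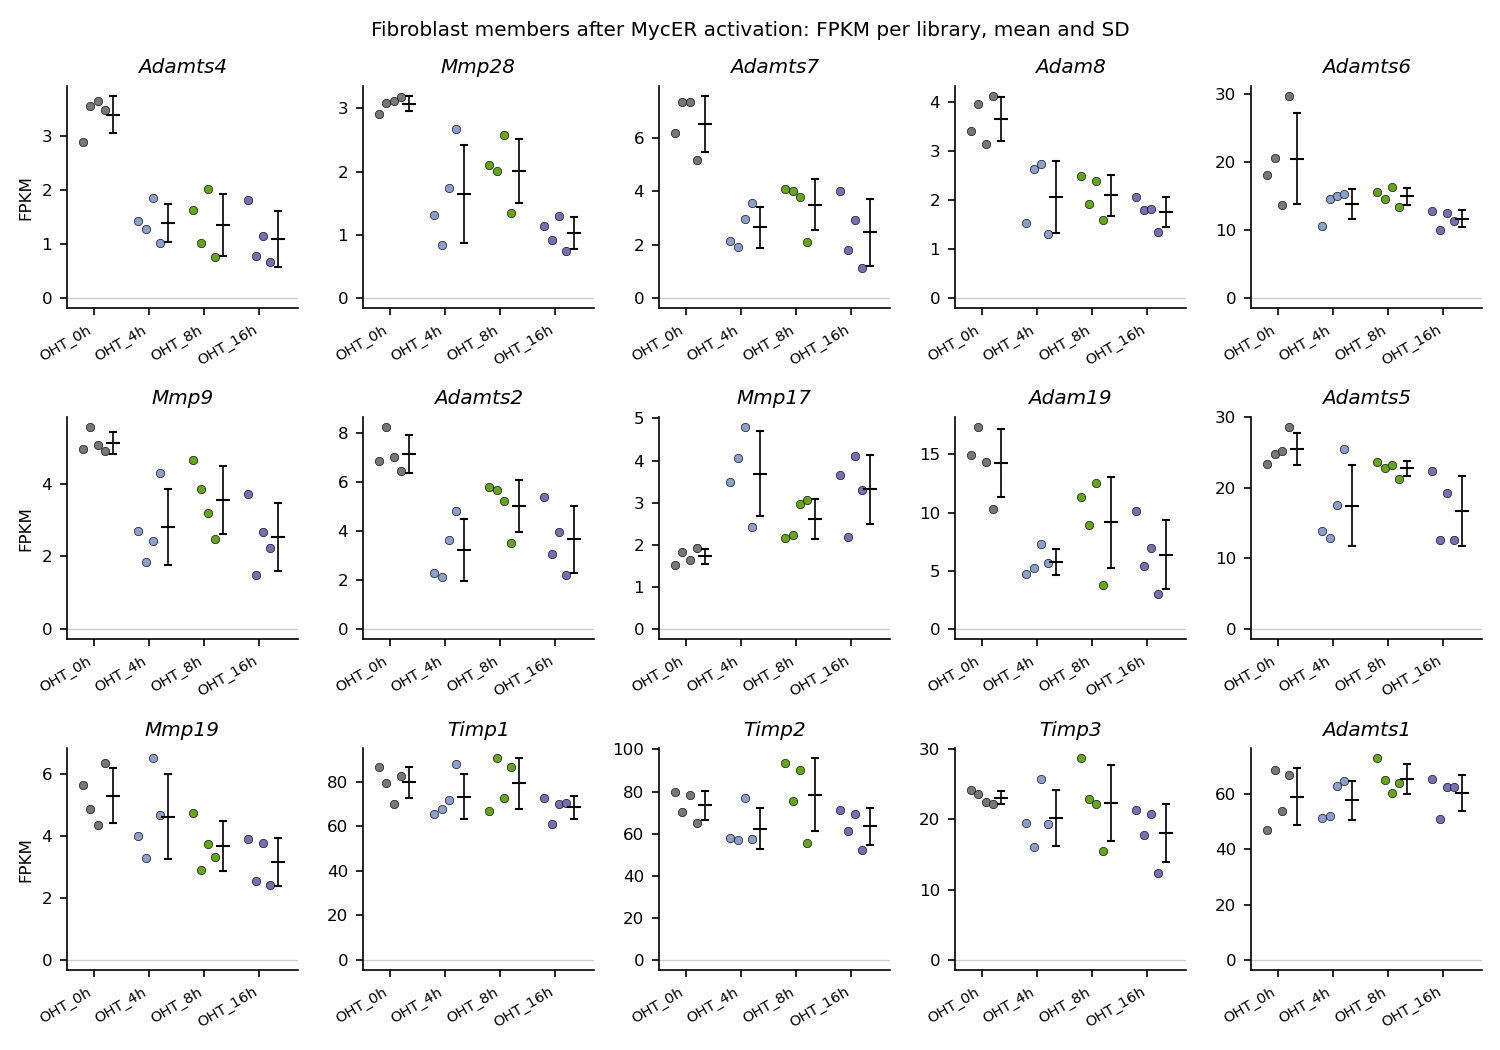
FPKM (linear axes, a scale for each gene) of the members called at 16 h, of Timp1, Timp2 and Timp3 and of Adamts1, 1 point per library at 0, 4, 8 and 16 h (4 libraries each) with mean and SD beside the points. Mmp17 sits higher at 4 and 16 h than at 0 h, and Adamts4, Adamts7, Adam8 and Mmp28 sit lower.

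In the 4sU libraries 36 members reached 1 FPKM and were measured, with 1 library per time and so no test. Of these, 0 were past 2-fold in either direction, where 1.19% of all 12375 genes measured were at least 2-fold higher and 0.703% at least 2-fold lower. At 4 h, 27 members were below and 9 above their 0 h value, with a median log2 ratio of -0.18 against 0.02 over all genes. The lowest ratios belonged to Adamts4 (1.939 FPKM at 0 h and 0.894 at 4 h, -0.81 on the log2(FPKM + 0.5) scale) and Adam19 (7.215 and 3.978, -0.78). The other members that fell in total RNA at 4 h were also lower in the labelled RNA: Adamts7 (3.17 and 1.957, -0.58), Adamts2 (2.415 and 1.628, -0.45), Adam8 (1.711 and 1.202, -0.38) and Mmp28 (1.296 and 0.994, -0.27). Mmp17 stayed under 1 FPKM in both 4sU libraries. The largest increase was that of Adamts9 (1.246 and 2.455, 0.76), followed by Mmp16 (8.663 and 12.218, 0.47) and Adamts1 (18.338 and 24.353, 0.40). Timp1, Timp2 and Timp3 had 39.182, 27.982 and 15.922 FPKM at 0 h and 34.038, 26.905 and 11.7 at 4 h.

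Some activators of the proteases also differed in the fibroblasts. Over all genes tested, 2.88% were lower and 1.9% higher at 4 h. At 8 h 0.982% were lower and 1.21% higher, and at 16 h 7.75% and 1.76%. The genes of these lists were not refitted under the other scalings, which moved the share of higher genes among all calls. Of 4 plasminogen system genes tested, 3 were lower at 4 h and at 16 h: Plau (urokinase; mean 67.8 FPKM at 0 h, 36.2 at 4 h and 36.8 at 16 h; -0.91 ± 0.18 and -0.92 ± 0.18, limma adjusted p = 0.00517 and 0.00266), its receptor Plaur (-0.44 ± 0.09 and -0.45 ± 0.09, limma adjusted p = 0.00659 and 0.00311) and Plat (-1.04 ± 0.24 and -1.29 ± 0.24, limma adjusted p = 0.0131 and 0.00174). At 8 h, Plau was the only called gene of the 4 (-0.73 ± 0.18, limma adjusted p = 0.0343). Of 4 proprotein convertases, Pcsk6 was higher at both times (10.3 FPKM at 0 h, 31.4 and 26.6; limma adjusted p = 0.0295 and 0.0275), and Pcsk7 was lower at 16 h. Tspan33, a partner of ADAM10, was higher (1.12 FPKM at 0 h, 3.99 and 3.49; limma adjusted p = 0.00966 and 0.0201), the only 1 of 7 partners tested. Of 18 membrane substrates, 2 were lower at 4 h (Ereg and Tnfrsf1b) and 4 at 16 h (with Hbegf and Prnp). Of 17 matrix substrates, 1 was lower at 4 h (Dcn) and 4 at 16 h, and the procollagen protease Tll1 was lower at both times. None of 6 other inhibitors and inducers was called.

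**Figure D5:**
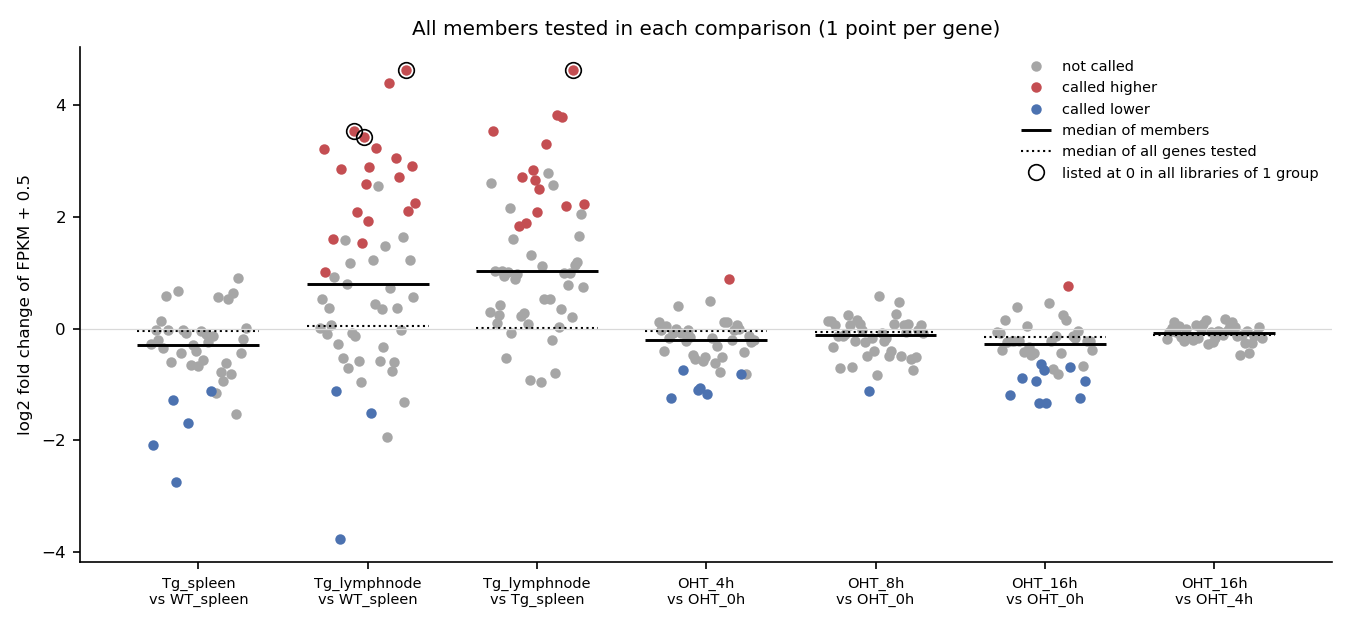
Log2 difference of the members on the log2(FPKM + 0.5) scale in each comparison, 1 point per member, coloured where called higher or lower, and ringed where listed at 0 in all libraries of 1 group; lines give the medians of the members and, dotted, of all genes. Of the called members, 19 of 22 and 14 of 14 lie above 0 in the lymph node comparisons. Among these, 12 and 10 entered the test through the nodes, where they were high. In Tg spleen 5 of 5 lie below 0 (12.8% of members tested, where 12.2% of all genes were lower). At 16 h of OHT 10 of 11 do, where 18.5% of all calls were higher.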

How the data were processed

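Gene expression was measured in 29 mouse libraries of ribosome-depleted total RNA, 11 of B cells and tumours, 16 of fibroblasts and 2 of 4sU-labelled fibroblast RNA. The authors deposited FPKM per gene and library. Per the submitters' processing notes, mm9, TopHat, TopHat2 2.0.8, SAMtools and HTSeq 0.5.3p9 were used. The files give no total counts, so depth was read only from the spacing of low values. In the B cell set 97.1 to 100% of these lay within 0.06 of whole reads. In the total RNA fibroblasts 44.0 to 59.2% did, and no depth was taken from them. The deposited values were taken as log2(FPKM + 0.5). A gene entered a test if the number of libraries with at least 1 FPKM was no less than the size of the smaller group, and was tested by limma 3.58.1 (R 4.3.3; trend and robust, two-sided) and Benjamini-Hochberg adjustment over all genes tested, with a threshold of 0.05. Fits of B cell comparisons used only the groups compared, while all 16 fibroblast libraries entered 1 fit. The code was tested on simulated data. Tables and figures were made with Python 3.11.15, NumPy 2.4.6, pandas 2.3.3 and Matplotlib 3.10.9. Values per library are given for called members averaging at least 5 FPKM in the higher group (2 in fibroblasts; the 12 with the smallest adjusted p where more were called), for the 3 highest members of each set and for the TIMPs, and for up to 3 called genes of each pathway list; a gene named outside this rule was chosen after its values were seen. Members and lists were chosen with earlier results of these data known. Alternatives changed the pseudocount, filter, scaling, limma settings, fitted groups, replicate block and libraries used. Exon overlaps and approximate reads used GENCODE M21.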

Additional observations from a re-analysis of the deposited data

Results flagged for a closer look

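In 6 of 100 groups of 4 libraries tested, 1 library lay far from the other 3, where chance gives about 1 in 20. The flagged spleen values lie at 2 FPKM or less, on few reads and with repeated values, so that rate need not hold for them. Adam12 was 0.8 FPKM in WT spleen replicate 4 and 0.1, 0.2 and 0.2 in the others. Adamts1 was 0 in Tg spleen replicate 3 and 0.5, 0.6 and 0.6 in the others. Adamts9 was 0.8 in Tg spleen replicate 5 and 0 in the others. Timp1 was 2 in WT spleen replicate 4 and 0 in the others. In fibroblasts, Adamts7 was 2.101 FPKM in replicate 4 at 8 h and 3.785, 4.019 and 4.102 in the others. Timp2 was 77.079 in replicate 3 at 4 h and 56.912, 57.65 and 57.79 in the others.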

How the results depend on the processing

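Of 1100 alternative values for 65 log2 differences of named members, 904 kept direction and side of the threshold, 172 kept direction and lost their call, and 24 changed sign, all of them TIMPs that were not called. Timp2 and Timp3 in Tg spleen were 0.012 and -0.67 in the high Rpph1 libraries, Timp1 and Timp3 at 8 h 0.084 and 0.016 with median ratio scaling, Timp3 at 8 h 0.060 without the 4 libraries numbered 4, and Timp1 at 16 h against 4 h 0.032 with median ratio scaling. With 1 library left out, Timp3 in Tg spleen ranged from -0.30 to 0.30, Timp2 in node against WT from -0.19 to 1.20 and against Tg spleen from -0.012 to 1.38, Timp1, Timp2 and Timp3 at 8 h from -0.083 to 0.063, -0.019 to 0.23 and -0.21 to 0.079, and Timp1 and Timp2 at 16 h against 4 h from -0.14 to 0.00098 and -0.031 to 0.13. Counts of members called moved by over 1.5 times as follows; the cause was not tested. Tg spleen against WT, 5 lower: 3 with no filter, 3 with quantile normalization, 1 with the replicate block, 1 in a fit of all 3 B cell groups and 0 in the high Rpph1 libraries. Tg lymph node against WT, 19 higher and 3 lower: 11 higher with a 5 FPKM filter, and 0 and 0 with the block. Against Tg spleen, 14 higher and 0 lower: 9 with pseudocount 0.1, 5 with the 5 FPKM filter, 8 with quantile normalization and 0 with the block, and 1 lower in the fit of all 3 groups. OHT 4 h, 6 lower and 1 higher: 3 with no filter, 3 with the 5 FPKM filter (0 higher), 10 and 2 with median ratio or quantile scaling, 10 in a 2-group fit, and 10 and 2 without the 4 libraries numbered 4. OHT 8 h, 1 lower and 0 higher: 0 with the 5 FPKM filter, 3 and 1 with either scaling, 4 with the block, 3 in a 2-group fit, and 2 and 1 without the libraries numbered 4. OHT 16 h, 10 lower and 1 higher: 5 and 0 with the 5 FPKM filter, 3 higher with median ratio, 4 with quantile and 2 without the libraries numbered 4. In 4sU RNA 1 member was at least 2-fold lower with pseudocount 0.1. With 1 library left out, members called ranged from 1 to 5 lower in Tg spleen, 16 to 24 higher and 3 to 4 lower in node against WT, 6 to 10 higher in node against Tg spleen, 0 to 1 higher and 1 to 8 lower at 4 h, 0 to 1 lower at 8 h, and 0 to 1 higher and 4 to 12 lower at 16 h. Without Tg spleen replicate 2, 4 or 5, 9 were higher in node against Tg spleen, 6 without replicate 3 and 7 without node replicate 2. The labels do not say that the numbers pair libraries. Deviations of same-numbered libraries correlated at 0.0183 to 0.489 in fibroblasts (over 0.1 for 3 of 4 numbers in each comparison with 0 h), 0.127 and 0.136 in spleen, 0.0358 and -0.0114 for node against WT and -0.0234 and 0.0587 against Tg spleen, so whether they are paired is not settled. The replicate block gave 9 lower at 4 h and 13 at 16 h. In the B cell comparisons most numbers occur in only 1 of the groups compared. The block then leaves almost no residual spread to test against, so its low counts there cannot show how firm the calls are.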

Other observations

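Some members were high in a single lymph node library. In Tg lymph node replicate 2, ADAMs known from testis stood out: Adam3 had 48.4 FPKM, against 8.9 and 7.8 in replicates 1 and 3, Adam18 had 7.5 against 0.5 and 1, and Adam21 had 11.5 against 3.3 and 2. Adam3 was the 1 of these called higher than in WT spleen. In replicate 3, which stood apart in its B cell and T cell markers, Adamtsl2 had 128.5 FPKM against 1.9 and 3.8 in replicates 1 and 2, Adam11 had 94.5 against 1.9 and 7, and Adam23 had 45.5 against 4.7 and 12.4. Adamtsl5 had 14.1 there against 0.5 and 0.9, and Adamts17 had 8.5 against 0.4 and 1.7. These genes were chosen after their values were seen, and of the last 5 Adamtsl2, Adam11 and Adam23 were tested between node and spleen and not called, while Adamtsl5 and Adamts17 did not pass the filter.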
